A study of Xenopus laevis with 4 samples.

Results

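The genes described here encode the building blocks and motors of the cytoskeleton, measured in 4 explants of the stage 10 Xenopus laevis embryo. They were chosen by gene symbol alone: actins and actin-related proteins, alpha-actinins, filamins, muscle and nonmuscle myosin chains, tropomyosins, cofilin, capping protein, profilin, tubulins, kinesins, dynein, dynactin, Rac, Cdc42 and other small GTPases. The rule found 113 gene copies on 153 probe sets, out of 7531 named gene copies on 9304 probe sets with 1 symbol. A probe set is a group of array oligonucleotides for 1 transcript. Xenopus laevis is allotetraploid, and the suffixes .L and .S mark the homeologous copies of a gene on the long and the short chromosome set.

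The groups were the animal cap (prospective ectoderm), the dorsal and the ventral marginal zone (opposite sides of the belt around the equator) and the vegetal explant (yolky cells of the lower pole), all from stage 10 embryos. The labels name no strain, treatment or genotype and no number of embryos per explant. Each explant was hybridised to 1 array. Every value below is therefore 1 measurement, no test of a difference was possible, and the fold changes compare arrays.

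Actin filaments carry the contraction and the crawling of embryonic cells, and microtubules carry the mitotic spindle and the traffic of vesicles. At gastrulation, bottle cells constrict their outer faces by pulling on actin with nonmuscle myosin, dorsal mesoderm narrows and lengthens by cells crawling between each other, and the ectoderm thins and spreads. Rac and Cdc42 are GTPase switches that tell cells where to assemble actin. Much of the RNA for these proteins is stored in the egg for the rapid cleavage divisions.

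Signals are linear intensities, and a scaling of each array to a common level is read from the values. The level of a gene is read within a probe set across explants and not against another gene's. Signals were raised to a floor of 24.7, and a probe set was compared where the higher of the explants set side by side reached 147, the median of all values. Arrays had median signals of 139 to 160, highest in the vegetal explant. Regional markers followed the labels on all 31 of their probe sets that reached 147, judged against the opposite explant. Goosecoid, chordin and nodal3 were higher dorsally than ventrally on 6 of 6, and sizzled and ventx genes higher ventrally than dorsally on 8 of 8. Epidermal genes were higher in the cap than vegetally on 10 of 10, and sox17 and mixer higher vegetally than in the cap on 6 of 6. Brachyury was highest in the marginal zones on its 1 probe set. These orders do not set each explant apart from all others: gsc.S had 2662 dorsally and 2594 vegetally, and ventx3.2.S 580 ventrally and 1959 vegetally. Control probe sets along the glyceraldehyde phosphate dehydrogenase transcript gave 3′ over 5′ ratios of 4.45 in the cap, 4.30 dorsally, 3.99 ventrally and 5.85 in the vegetal explant. Those for beta-actin gave 0.679 to 0.711. The part of transcript coverage in the results below was not tested.

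Most cytoskeletal RNAs that were measured lay at similar signals in all 4 explants. Of 153 probe sets, 104 reached 147 in at least 1 explant, covering 80 gene copies. On these the highest explant stood a median of 1.41-fold above the lowest, and on 63 of them (60.6%) it stood less than 1.5-fold above. Over all 8851 probe sets that reached the filter the median was 1.55-fold, and 46.4% stood under 1.5-fold. The range was 2-fold or more on 21 cytoskeletal probe sets (20.2%) against 27.4% of all, and 4-fold or more on 6 (5.77%) against 8.50%. The signals of the cytoskeletal probe sets, taken as array readings and not as RNA levels, had a median of 609 against 465 for all. Probe sets with high signals varied less on these arrays. The part of signal level in the narrower range of the cytoskeletal probe sets was not tested.

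**Figure D1:**
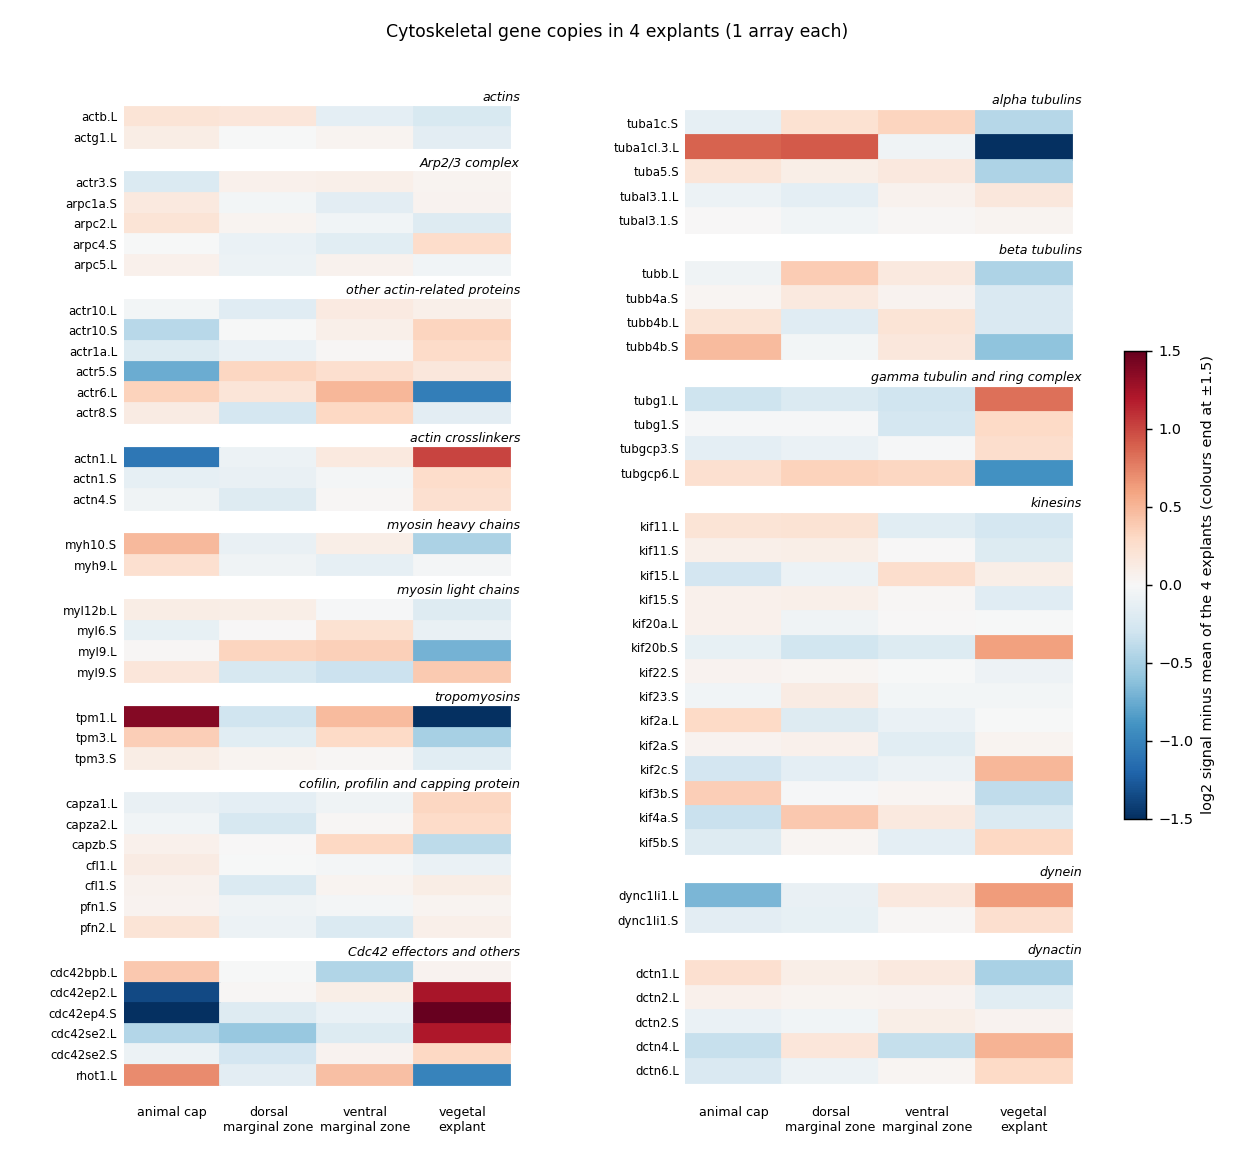
Each row is 1 of 72 gene copies drawn, of the 80 whose probe sets reached the filter, grouped by role (small GTPases are not drawn). Columns are the 4 explants (1 array each), and the colour is the log2 signal minus the mean of the 4 explants. Most rows are pale. The darkest cells lie in the cap or vegetal column, among them cells of cdc42ep4.S, cdc42ep2.L, cdc42se2.L, actn1.L, tpm1.L and tuba1cl.3.L. The row of tuba1cl.3.L is about as dark dorsally as in the cap.

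The animal cap and the vegetal explant differed most. Of 103 cytoskeletal probe sets that entered this comparison, 10 (9.71%) were 2-fold or more higher in the cap, where 9.14% of all 8614 probe sets were. Another 7 (6.80%) were 2-fold or more higher vegetally, against 11.7% of all. With a filter on the mean over the 4 explants these counts became 4 and 6 of 93, against 8.90% and 9.42% of all. After centring arrays on their medians they were 13 and 6 of 103, against 12.8% and 8.82% of all. The median difference, cap minus vegetal, was 0.10 on the log2 scale, and -0.01 over all probe sets. The cap signal was the higher on 56 of the 103 (54.4%), against 49.3% of all. Among dim probe sets, with a mean signal under 300, 13 of 35 cytoskeletal ones (37.1%) passed 2-fold, against 32.5% of all. From 300 to 1000 it was 2 of 28 (7.14%) against 18.1%, and over 1000 it was 2 of 40 (5%) against 10.6%. Of the dim cytoskeletal ones 8 were higher in the cap and 5 vegetally, and of all 2963 dim ones 324 and 638. A dim probe set entered only where the cap or vegetal signal reached the filter, which favours large differences among the dimmest. The part of this filter was not tested within the brightness groups. In bulk explants, fewer cells with an RNA and less RNA per cell cannot be told apart.

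The only gauge of error inside the arrays is several probe sets for 1 gene copy. For 15 cytoskeletal copies with several probe sets, the standard deviation of a probe set around its copy's mean was 0.38 on the log2 scale for cap minus vegetal and 0.20 for dorsal minus ventral. Over all named genes with several probe sets it was larger, 0.59 and 0.32. These are repeat readings of the same RNA and say nothing of variation between embryos.

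**Figure D2:**
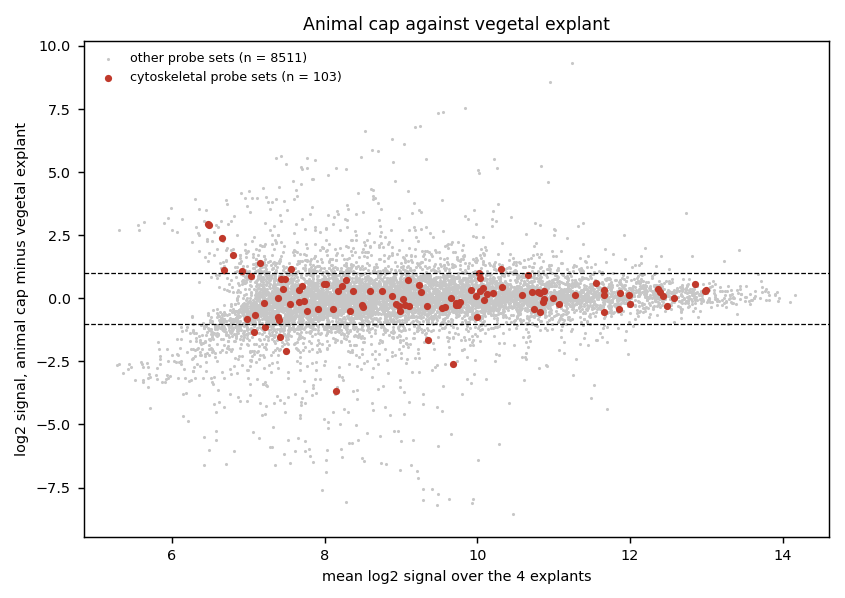
The y axis is the log2 signal of the animal cap minus the vegetal explant and the x axis the mean log2 signal over the 4 explants. Points are probe sets, 103 cytoskeletal ones in red and the others in grey, and dashed lines mark 2-fold. The red points narrow around 0 at high signal, and those past 2-fold lie mostly at the dim end. At that end the filter on the cap or vegetal signal favours large differences.

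Probe sets for 2 Cdc42 effectors, cdc42ep4.S and cdc42ep2.L, had the largest vegetal excess among the cytoskeletal probe sets. Cdc42ep4 and cdc42ep2 belong to the Borg family, which bind active Cdc42 and organise septins and actin. The cdc42ep4.S probe set gave 87.7 in the cap, 249.8 dorsally, 266 ventrally and 1128 in the vegetal explant, 12.9-fold higher vegetally than in the cap. The marginal zones were alike and lay between the poles. The homeologous cdc42ep4.L stayed under the filter, with 116 vegetally and 38.7, 27.3 and 23.3 in the cap, dorsal and ventral explants, so its highest signal was vegetal too.

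The cdc42ep2.L probe set followed the same order, with 320 in the cap, 825 dorsally, 877 ventrally and 1931 vegetally, a 6.03-fold difference between the poles. Cdc42se2 encodes a small effector protein that binds Cdc42. Its copy cdc42se2.L was 481 in the cap, 441 dorsally, 569 ventrally and 1513 vegetally, 3.14-fold higher vegetally than in the cap. Unlike cdc42ep4.S and cdc42ep2.L it was no lower in the cap than in the dorsal marginal zone. The copy cdc42se2.S differed less, with 1926, 1614, 1826 and 2105 on one probe set and 117, 108, 149 and 184 on the other, in the same explant order.

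The Cdc42-binding kinase gene cdc42bpb.L ran from 129 ventrally to 234 in the cap, a range of 1.82-fold. Rhot1, which the rule also matched, encodes a GTPase of the outer mitochondrial membrane that links mitochondria to motors. Its copy rhot1.L was 182 in the cap, 100.1 dorsally, 154 ventrally and 56.1 vegetally, 3.25-fold higher in the cap. Over the 7 probe sets of these effector and mitochondrial GTPase genes the median was -0.66, with 3 past 2-fold vegetally and 1 in the cap. Of all 8614 probe sets 11.7% passed 2-fold vegetally and 9.14% in the cap.

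Cdc42.L itself, read by 6 probe sets, ran from -0.54 to 0.21 (log2, cap minus vegetal), so its probe sets did not share a sign and none came near 2-fold. On the brightest, the signals were 3589 in the cap, 4164 dorsally, 4496 ventrally and 4183 vegetally. Rac1, another switch for actin assembly, was also even: rac1.L gave 213, 204, 231 and 171 in the same order.

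Rhou is an atypical Cdc42-like GTPase, known in mammalian cells as a gene that responds to Wnt. Among the genes of the symbol rule that reached the filter, it alone was 2-fold apart between the marginal zones. The rhou.L probe set gave 1741 ventrally and 832 dorsally, 2.09-fold higher ventrally, with 1098 in the cap and 971 in the vegetal explant. It was 1 of 99 probe sets (1.01%) higher ventrally, against 1.17% of all 8094. None of the 99 was 2-fold higher dorsally, against 1.38% of all, and the median, dorsal minus ventral, was -0.05 for the cytoskeletal probe sets and -0.01 for all. The nearest on the dorsal side was a probe set of the tubulin gene tuba1cl.3.L, with 194 dorsally and 96.8 ventrally, just short of 2-fold.

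**Figure D3:**
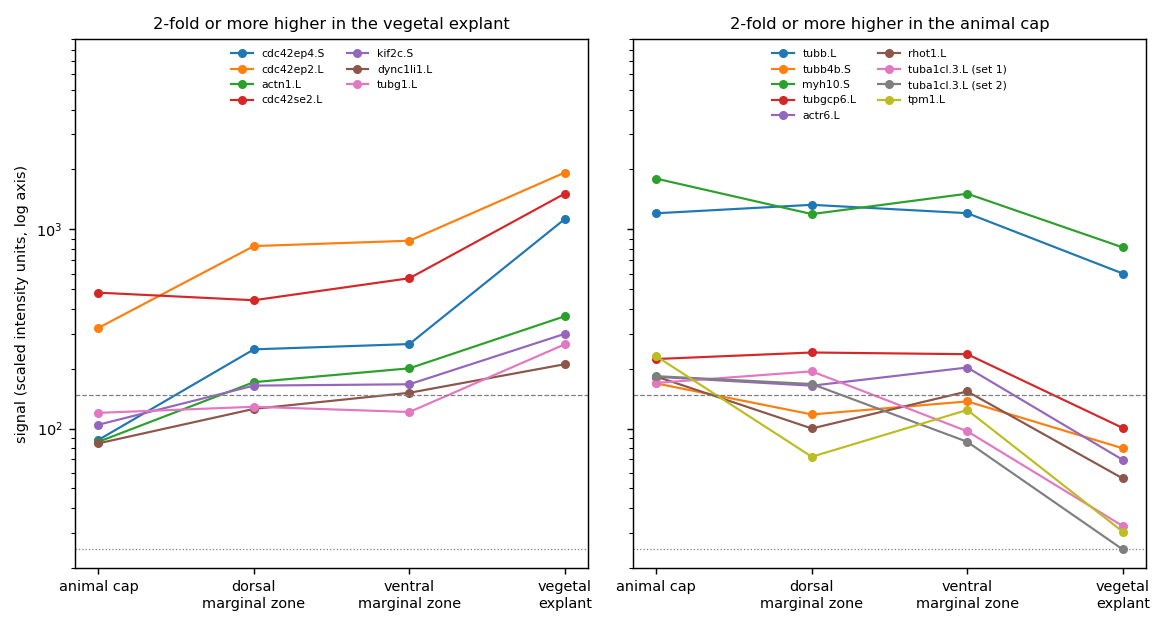
Signals on a log axis in the 4 explants (1 array each, points joined by lines only to follow a probe set) for the 7 probe sets 2-fold or more higher vegetally than in the cap (left) and for 9 of the 10 higher in the cap (right). The dashed line is the filter of 147 and the dotted line the floor of 24.7. On the left the marginal zones mostly sit between the poles, and on the right every line ends lowest in the vegetal explant, with actr6.L, tubb.L and tubgcp6.L nearly level before it and the others already uneven among the cap and the marginal zones.

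Actins, the filament subunits, stayed within 1.49-fold over the 4 explants, with a lean to the cap. Beta-actin actb.L had 8776, 8916, 6307 and 5983 in the cap, dorsal, ventral and vegetal explants on one probe set and 9112, 8726, 7717 and 7199 on another, while another did not rise above 27.6. Both bright probe sets placed the cap and dorsal explants above the ventral and vegetal ones, by less than 2-fold. Control probe sets for beta-actin, which are no members, gave 3′ signals of 802, 751, 940 and 448 in the same explant order, lowest vegetally as well but highest ventrally. The 5′ signals were 1181, 1065, 1355 and 629, also highest ventrally, and the middle ones 2931, 3190, 3107 and 1961, highest dorsally. Each of these controls ranged more widely over the explants than the actin probe sets that entered. Gamma-actin actg1.L was 2037, 1876, 1938 and 1683. All 3 actin probe sets that entered had higher cap than vegetal signals, with a median log2 difference of 0.34 and none past 2-fold.

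Genes of the Arp2/3 complex, cofilin, profilin and capping protein stayed under 2-fold between the poles and leaned both ways. The Arp2/3 complex nucleates branched filaments, and its 6 measured probe sets had a median of 0.09 (log2, cap minus vegetal), between -0.29 for arpc4.S and 0.40 for arpc2.L. The arpc4.S signals were 5677, 5358, 5065 and 6944 in the cap, dorsal, ventral and vegetal explants. Cofilin severs filaments, profilin feeds them with monomers and capping protein blocks their growing ends. The 7 probe sets of this group had a median of 0.01 and reached from -0.44 for the capping subunit gene capza1.L to 0.48 for capzb.S. Their partner subunits thus leaned opposite ways: capza1.L was 3421 in the cap and 4637 vegetally, and capzb.S 316 and 227. The profilin gene pfn1.S was among the most even of all, with 2108, 1942, 1996 and 2093.

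Nonmuscle myosin II pulls actin filaments past each other. Its heavy chain gene myh10.S was 1799 in the cap, 1194 dorsally, 1511 ventrally and 812 vegetally, 2.21-fold higher in the cap than vegetally. A dimmer probe set of the same copy gave 248, 165, 173 and 147, with the cap again highest and the vegetal explant lowest. The other heavy chain gene, myh9.L, was 2083 in the cap and between 1606 and 1733 elsewhere. The regulatory light chain gene myl9.L had 549 in the cap, 687 dorsally, 698 ventrally and 331 vegetally, so both marginal zones stood 2-fold or more above the vegetal explant. Its homeolog myl9.S ran otherwise, with 168, 125, 119 and 194. The light chain gene myl12b.L was 3453, 3270, 3516 and 2769 on its brightest probe set.

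Tropomyosins lie along the actin filament and decide which proteins reach it. The tpm1.L probe set had the widest cap excess of this group, with 231 in the cap, 72.1 dorsally, 124 ventrally and 30.3 vegetally, 7.60-fold between the poles. The cap stood apart from the dorsal marginal zone as well, and the vegetal signal of tpm1.L lay just above the floor. This probe set is of a type (_a_at) that can match several transcripts. Without such types the tropomyosin median was 0.57 over 2 probe sets, against 0.87 over 3. The tpm3.L signals were 170 in the cap, 117 dorsally and 161 ventrally and lowest in the vegetal explant, with a log2 difference of 0.87 between the poles. This is the same order of explants with a smaller range, and tpm3.S was 1132, 1078, 1069 and 938 in the cap, dorsal, ventral and vegetal explants.

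Alpha-actinin bundles actin filaments, and here the difference ran to the vegetal side. Actn1.L was 85.8 in the cap, 171 dorsally, 201 ventrally and 366 vegetally, 4.27-fold higher vegetally than in the cap. Its homeolog actn1.S had 1554, 1586, 1678 and 2062, and actn4.S 483, 441, 509 and 595. All 3 were highest in the vegetal explant, but only actn1.L passed 2-fold.

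A set of muscle-type isoforms, which serve later muscle, did not reach the filter in any explant. This set of 31 probe sets on 20 gene copies holds skeletal and smooth muscle actins, muscle alpha-actinins and muscle myosin chains together with tpm2, flnc and cfl2. No cardiac actin gene was among the members. It was picked by symbol with values known. It leaves out tpm1.L and both myl9 copies, genes that muscle also uses and that reached the filter. Their highest signals over the 4 explants had a median of 23.2 and a maximum of 89.7 (myl3.L, vegetally), and 14 rose above the floor. The myogenic regulator genes myod1.L and myod1.S had highest signals of 51.2 and 118, while myf5.L was 325 in the dorsal marginal zone. Low signals can come from absent RNA or from poor probe sets, and these arrays do not tell them apart.

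Tubulins form microtubules from alpha and beta subunits. Of 10 measured alpha-tubulin probe sets, on 5 gene copies, 7 were higher in the cap than vegetally, with a median of 0.55. Of 6 beta-tubulin probe sets, on 4 gene copies, 5 were, with a median of 0.37. Over all 8614 probe sets 49.3% were. The alpha-tubulin median was 0.28 over the 4 probe sets that match 1 transcript by their type, 0.30 per gene copy and 0.38 with the filter on the mean. The vegetal explant was the lowest of the 4 for tuba5.S on all 3 of its probe sets: the brightest gave 5974, 5346, 5091 and 5016 in the cap, dorsal, ventral and vegetal explants, and the others 1113, 1205, 1397 and 641, and 2044, 1755, 1781 and 1090. Tuba1c.S was 3179, 3358, 3573 and 2104 on its brightest probe set, but its dimmest gave 138, 235, 239 and 159, where the cap was lowest. The marginal zones stood at or above the cap for tuba1c.S on all 3 probe sets. The copies tubal3.1.L and tubal3.1.S leaned slightly to the vegetal explant, at -0.26 and -0.04 (log2, cap minus vegetal).

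The dim alpha-tubulin copy tuba1cl.3.L had 170 and 183 in the cap on its 2 probe sets above the filter, 194 and 167 dorsally, 96.8 and 85.8 ventrally, and 32.4 and 13.6 vegetally. The cap was 5.24-fold higher than the vegetal explant on the first and at least 7.42-fold on the second, where the vegetal signal lay under the floor. Both are of a type (_x_at) that can hybridise with several transcripts, and the remaining probe set of this copy did not rise above 31.3. Tubulin paralogs are alike in sequence, and the part of cross-hybridisation was not tested.

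Among beta-tubulins, tubb4b.S was 168, 118, 137 and 79.6 in the cap, dorsal, ventral and vegetal explants, 2.12-fold higher in the cap than vegetally, and tubb4b.L was 1482, 1131, 1484 and 1095. One tubb.L probe set gave 1205, 1329, 1207 and 600.4, a 2.01-fold cap excess, but the other gave 385, 653, 514 and 448, where the cap was lowest. The bright tubb4a.S was 8179, 9134, 8689 and 6664.

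Gamma-tubulin seeds microtubules within a ring complex, and its genes split. Tubg1.L was 120, 129, 121 and 265 in the cap, dorsal, ventral and vegetal explants, so that the vegetal explant stood 2.06-fold or more above each of the others. Tubg1.S leaned the same way, with 545, 546, 457 and 678. The ring complex gene tubgcp6.L did the opposite, with 223, 241, 236 and 101, lowest vegetally by 2.22-fold or more, while tubgcp3.S was 218, 225, 238 and 291.

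**Figure D4:**
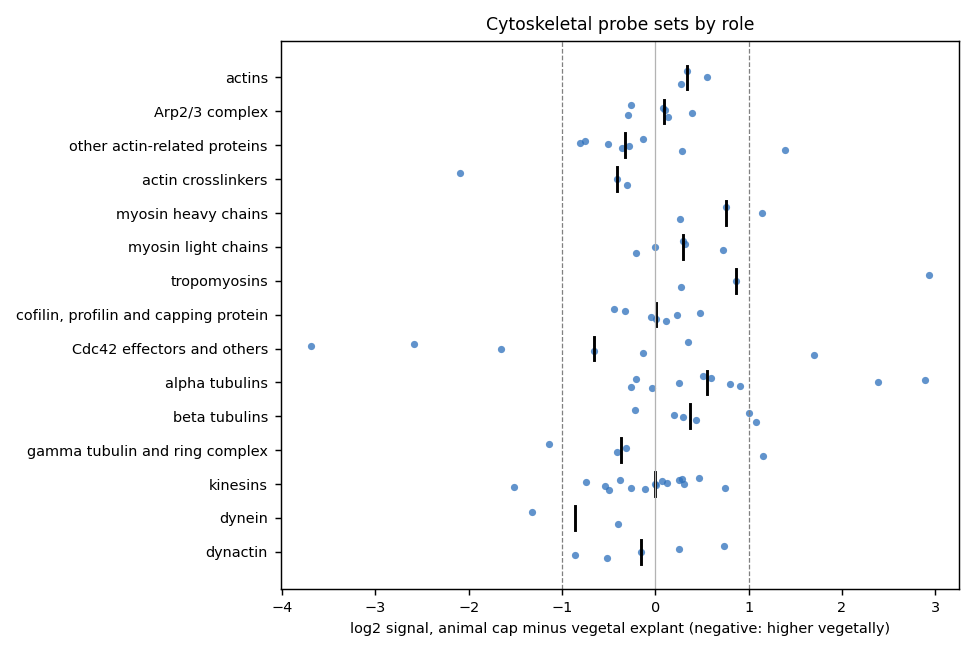
Points are 88 of the 103 cytoskeletal probe sets by role (small GTPases are not drawn), with the log2 signal of the animal cap minus the vegetal explant on the x axis. Black bars are group medians and dashed lines mark 2-fold. The dynein median rests on 2 probe sets, and those of actins, crosslinkers, myosin heavy chains and tropomyosins on 3 each. Tropomyosin, myosin and alpha- and beta-tubulin medians lie right of 0, the Cdc42 effector, crosslinker, gamma-tubulin and dynein medians lie left, and kinesins, cofilin, profilin and capping protein centre on 0.

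Kinesins, most of those measured here being mitotic motors, leaned both ways. Of 16 probe sets, 8 leaned to the cap and 8 to the vegetal explant, the median was -0.0015, and 1 passed 2-fold, vegetally. Of all 8614 probe sets 49.3% leaned to the cap, 9.14% passed 2-fold there and 11.7% passed it vegetally. The range of the kinesin probe sets over the 4 explants had the same median, 1.41-fold, as over all the cytoskeletal probe sets. The probe set past 2-fold was a probe set of kif2c.S, which encodes a kinesin that takes microtubule ends apart, with 104, 164, 167 and 299 in the cap, dorsal, ventral and vegetal explants. Its other probe sets gave 1692, 1653, 1570 and 2454, and 844, 710, 840 and 1013, vegetally highest but under 2-fold. Kif20b.S, a cytokinesis motor, was 935, 836, 888 and 1562. The transport motor genes kif3b.S and kif5b.S leaned opposite ways, with 223, 171, 176 and 133, and 444, 519, 459 and 627. The cytokinesis motor kif20a.L was 5795, 5254, 5515 and 5504, and the chromosome-arm motor kif22.S was 3349, 3299, 3241 and 3084, each nearly level over the 4 explants. Kif11.L and kif11.S, for the motor that pushes spindle poles apart, were 241, 242, 185 and 174, and 351, 355, 333 and 288.

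Dynein walks towards the centre of the cell, and dynactin couples it to its cargo. The dynein light intermediate chain gene dync1li1.L was 84.2 in the cap, 125 dorsally, 151 ventrally and 210.4 vegetally, 2.50-fold between the poles, and dync1li1.S was 249.6, 255, 281 and 331. Of 5 dynactin probe sets none passed 2-fold: dctn4.L leaned vegetally (133, 191, 132 and 243) and dctn1.L, for the subunit that binds microtubules, to the cap (368, 332, 345 and 222). The dynactin filament genes actr1a.L and actr10.S had log2 differences (cap minus vegetal) of -0.49 and -0.75, the first as a mean over 4 probe sets. The homeolog actr10.L was at -0.13 and rose to 0.07 at most in the processing alternatives, so its sign was not stable. The remaining actin-related genes encode subunits of chromatin remodellers. Of these, actr6.L was 182, 164, 202 and 69.6, 2.61-fold higher in the cap than vegetally, and actr5.S was 78.1, 163, 155 and 147, lowest in the cap.

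The scaling of the arrays sets some of these group directions. Centring each array on its median raised the cap minus vegetal median of all probe sets from -0.01 to 0.21, and the dynactin and kinesin medians then became 0.06 and 0.21. Under median centring, quantile normalization and scaling to the hybridisation controls, the crosslinker, dynein, gamma-tubulin and effector medians remained below 0. The actin, myosin, tropomyosin and alpha- and beta-tubulin medians remained above 0. Several rest on few probe sets, 2 for dynein and 3 each for actins, crosslinkers, myosin heavy chains and tropomyosins. With the filter on the mean, tropomyosins (0.27) and dynein (-0.41) kept 1 probe set each. Without a filter the medians of both myosin groups were 0. The cofilin, profilin and capping protein median turned from 0.01 to -0.02 under quantile normalization.

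No cytoskeletal probe set of 104 was 2-fold above both poles in both marginal zones (0.384% of all were) or below both (0.0226%). None was 2-fold above the other 3 explants in the cap (0.723% of all), dorsally (0.316%) or ventrally (0.181%). In the vegetal explant 4 (3.85%) were, against 6.01% of all: cdc42ep4.S, cdc42ep2.L, cdc42se2.L and tubg1.L. Against the vegetal explant, 11 of 99 stood 2-fold or more apart on the dorsal side (17.7% of all) and 10 of 99 on the ventral side (17.1%). The cap differed at 4 of 100 from the dorsal (5.86%) and at 4 of 102 from the ventral marginal zone (4.68%). These comparisons share arrays with each other.

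For the 10 probe sets higher in the cap, the mean of the marginal zones lay nearer to the cap than to the vegetal explant on all 10, as it did on 87.3% of all 787 such probe sets. For the 7 higher vegetally it lay nearer to the cap on 4, and on 78.1% of all 1011 such probe sets. Both marginal zones lay between the poles on 6 of the 10 (69.3% of all such probe sets) and on 6 of the 7 (65.4%).

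Homeologous copies could be compared for 14 cytoskeletal genes between cap and vegetal explant. The copies had the same sign in 10, and in all named genes in 397 of 576. The median absolute difference between copies was 0.63 on the log2 scale, against 0.44 over all named pairs, and 2 of 14 pairs were 2-fold or more apart, against 105 of 576. These were actn1, at -2.09 for the .L and -0.41 for the .S copy, and cdc42se2, at -1.65 and -0.39. In both genes, and in dync1li1 (-1.32 and -0.41) and tubg1 (-1.14 and -0.32), the copies shared the vegetal direction and the .L copy passed 2-fold alone. In tubb4b (0.44 for .L and 1.08 for .S) both copies leaned to the cap and the .S copy passed 2-fold alone. As array readings, the copy past 2-fold had the dimmer probe set in actn1, dync1li1, tubg1 and tubb4b. The pairs of opposite sign were myl9, kif15, dctn2 and cfl1, of which myl9 was furthest apart (0.73 for .L and -0.21 for .S).

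**Figure D5:**
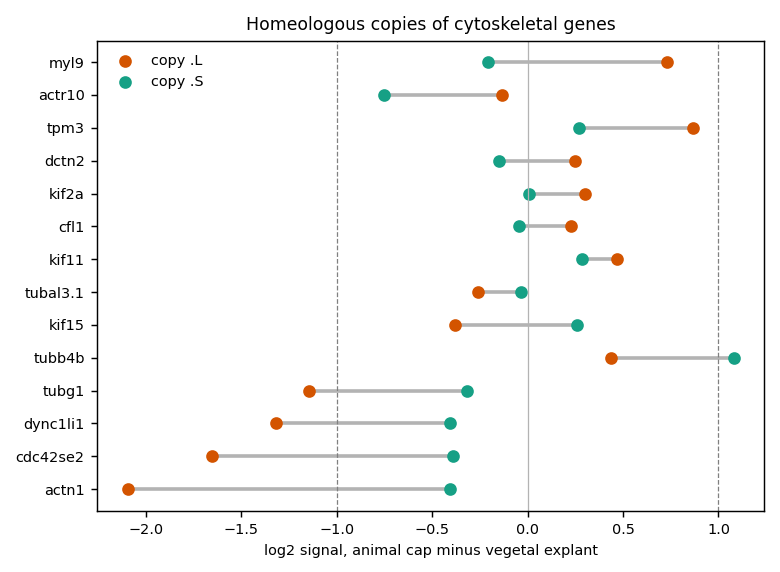
Points are the .L (orange) and .S (green) copies of 14 cytoskeletal genes, with the log2 signal of the animal cap minus the vegetal explant on the x axis and dashed lines at 2-fold. In actn1, cdc42se2, dync1li1 and tubg1 both copies lie on the vegetal side with the .L copy further out. In tubb4b both lie on the cap side with the .S copy further out.

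Cytoskeletal genes outside the symbol rule were taken from a list of 123 other regulators and motors, of which 65 were on the array. Of 69 probe sets compared, 3 had a cap excess of 2-fold or more, a smaller share than the 9.14% of all probe sets. A vegetal excess was seen on 8, close to the 11.7% of all. The median, cap minus vegetal, was -0.07, against -0.01 over all probe sets. Vegetally higher were the membrane motor gene myo1c.L (1714 in the cap and 5974 vegetally on 1 probe set, 3.49-fold) and the filament elongation gene vasp.L (341 and 1088). Other compared myo1c.L probe sets gave 1813 and 5441, and 191 and 274. The myo1c.S probe sets gave 7251 and 7488, 6707 and 5334, and 626 and 1026. Also higher vegetally were marcksl1.L (539 and 1534), septin7.L (101 and 246) and the microtubule-severing gene katna1.S (348 and 851). So was vim.S (62.8 and 172), while its homeolog vim.L had 734 and 411. Higher in the cap were shroom1.L, of the family that drives apical constriction (305 and 107, 2.84-fold), the microtubule end gene mapre1.S (422 and 209.8, 2.01-fold) and ckap4.S, and by less than 2-fold tbcb.S (507 and 262) and myo5a.L (285 and 153). The ckap4.S probe set had 891 in the cap, 217 dorsally, 472 ventrally and 5.45 vegetally, at least 36.1-fold between the poles. Its homeolog ckap4.L was nearly level between the poles, with 304, 330, 214 and 293 in the same explant order. Despite its name ckap4 is known as a membrane protein of the endoplasmic reticulum.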

How the data were processed

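Total RNA of 4 explants was labelled with biotin from 100 ng with the Ovation system and hybridised to 1 array each, per the labels' protocols. The authors deposited linear intensity signals for 15611 probe sets. How signals were summarised and scaled is not given in the sources used here. The mean without the lowest and highest 2% was 500.1 on each array, so a scaling of the whole array is read from the values. Control probe sets (120) did not enter. Names came from the platform annotation (9304 probe sets with 1 symbol). Another 4 probe sets with several symbols matched the rule and stayed unnamed. Some matched genes are counted in the totals but not reported here.

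Signals were raised to the 20th percentile (24.7), put on the log2 scale and filtered at the median (147). A fold with its lower side at the floor is a bound. A threshold of 2-fold was used, without a test, since each explant had 1 array. The number of arrays limits the precision. Gene values are means over probe sets that entered. The members and lists were chosen with earlier results of these data known. The rule for naming genes took, per role group the 3 largest cap against vegetal and the 2 largest dorsal against ventral differences and the brightest, the 12 largest each way over all groups, those 2-fold apart between marginal zones or enriched in 1 explant, the 6 homeologous pairs furthest apart, and up to 6 outside genes each way. The genes actr5.S, cdc42.L, cdc42ep4.L, dctn2.L, cfl1.L, cfl1.S, ckap4.L, kif11.S, kif15.S, kif20a.L, kif22.S, myl3.L, myo1c.S, pfn1.S and tubal3.1.S were named after their values were seen. Calculations used Python 3.11.15, numpy 2.4.6 and pandas 2.3.3 and were tested on simulated data. Alternatives covered the floor, the filter, the scaling, the probe set type, averaging per gene copy and symbols of other function.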

Additional observations from a re-analysis of the deposited data

How the results depend on the processing

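No paired analysis was possible because each explant had 1 array, and no replicate could be left out. Under 9 alternatives, 61 of 72 main counts and medians stayed close to their values (within 1.5 times, or within 0.1 for a log2 median). The dorsal minus ventral median (-0.05) and that of the marginal zones minus the poles (0.03) are smaller than 0.1. For them even a change of sign could count as close. Without a filter 12 of 153 cytoskeletal probe sets were higher vegetally, against 10.9% of all, and the cap minus vegetal median was 0. Between the marginal zones 2 of the 153 then differed, where 1.88% of all were higher dorsally and 1.69% ventrally. With a filter on the mean over the 4 explants 4 were higher in the cap and 6 vegetally, which turns the balance of 10 against 7. Averaging per gene copy gave 7 and 6, and leaving out probe sets that may match several transcripts gave 7 and 7. Without the Cdc42 effector, mitochondrial GTPase and other off-role symbols 4 of 96 were higher vegetally (11.7% of all). Then 1 of 97, tubg1.L, remained enriched in the vegetal explant (6.01% of all). Centring each array on its median moved the cap minus vegetal median to 0.31 (0.21 for all probe sets). Quantile normalization gave 2 of 99 probe sets apart between the marginal zones (1.41% of all higher dorsally and 1.12% ventrally). Scaling to the hybridisation controls left 2 of 103 enriched in 1 explant, and no share of all was kept for that count. The dorsal minus ventral median was then -0.26 (-0.22 for all probe sets). The median of the marginal zones minus the poles was 0.14 (0.11 for all probe sets). Of 63 named gene copies, 13 were 2-fold apart between cap and vegetal explant. None of these changed sign in the alternatives in which they were compared. They were picked for a 2-fold difference in these same data, so an unchanged sign is no separate support. With the filter on the mean several did not enter, among them tpm1.L, tuba1cl.3.L, tubb4b.S, rhot1.L and dync1li1.L. Without probe sets that may match several transcripts, tpm1.L and tuba1cl.3.L did not enter either. Of the 13, tubg1.L came to -0.94 under median centring. Vegetal signals near or under the floor limit the folds of tpm1.L and tuba1cl.3.L.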
